A study of Sorghum bicolor with 16 samples.

Results

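LEA3, the gene SORBI_3009G215700, is described in the deposited expression table as late embryogenesis abundant protein 3. It was chosen by its identifier and is 1 of 29033 genes in that table, and 1 of the 16280 genes tested, those that averaged at least 1 FPKM. FPKM is an expression level scaled by transcript length and library size. No other gene of the table has a description that names a late embryogenesis abundant protein or a dehydrin, and 96.9% of the tested genes are described as hypothetical or uncharacterized proteins. The data come from roots of sweet sorghum at the 3-leaf phase, from salt-stressed and control plants of M-81E, labelled salt-tolerant, and from salt-stressed and control plants of Roma, labelled salt-sensitive. Each strain and treatment had 2 biological replicates, and each RNA was sequenced after enrichment with an antibody to N6-methyladenosine (IP) and without it (input). How much salt was given, for how long, and whether plants were pooled, was not stated, so p-values measure the spread between these samples.

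Late embryogenesis abundant proteins are hydrophilic and mostly unstructured. They accumulate in maturing seeds as these dry, and in roots and leaves when cells lose water through drought, salt or cold, often through abscisic acid, a stress hormone. They are thought to protect other proteins and membranes as water is withdrawn. The N6-methyladenosine modification (m6A) of messenger RNA is added by a methyltransferase complex and read by binding proteins. In plants it is concentrated near stop codons and in 3′ UTRs.

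LEA3 was listed at higher FPKM in the salt libraries than in the control libraries of both strains. In Roma it had 91.0 and 69.4 FPKM in salt-stressed roots, against 0.982 and 2.23 FPKM in control roots. In M-81E it had 27.4 and 13.9 FPKM in salt-stressed roots, against 3.42 and 0.784 FPKM in control roots. All 4 salt libraries lay above all 4 control libraries, so the salt and control groups did not overlap in either strain. Taken in 1 strain at a time, both salt libraries lay above both control libraries for 27.2% of all tested genes in Roma and for 18.3% in M-81E. The share of genes separated in both strains, or with all 4 salt above all 4 control libraries, was not counted.

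**Figure D1:**
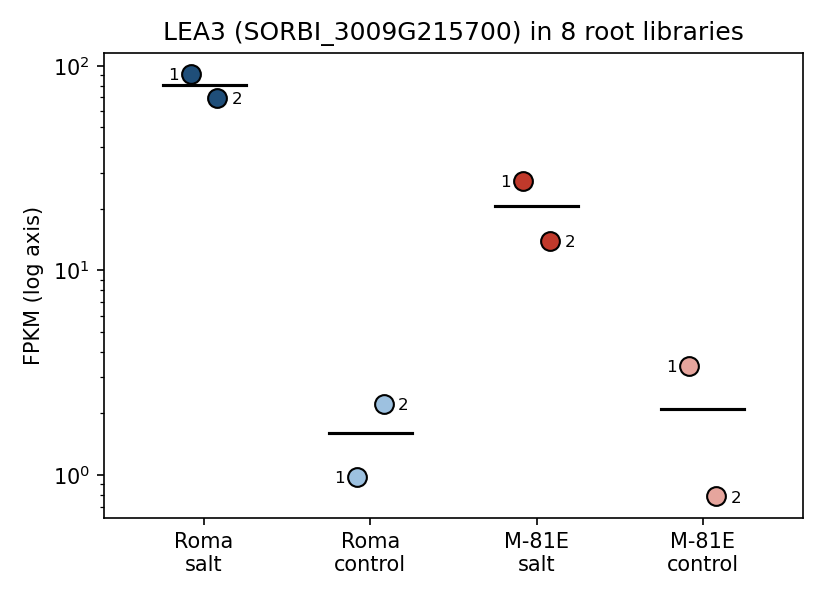
LEA3 expression in FPKM (log axis) in each of the 8 libraries, by strain and treatment; points are libraries marked with their replicate number and horizontal lines are means of 2. The 4 salt libraries lie between 13.9 and 91.0 FPKM and the 4 control libraries between 0.784 and 3.42 FPKM.

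By group, the order of the levels was Roma salt (80.2 ± 15.2 FPKM), M-81E salt (20.6 ± 9.56), M-81E control (2.10 ± 1.87) and Roma control (1.61 ± 0.882; SD, n = 2 each). The Roma control and M-81E control groups, next to each other at the low end, overlapped. With 2 libraries a group an exact permutation test cannot go below a two-sided p of 0.333. Comparisons therefore rest on a limma fit of log2(FPKM + 1) over all 16280 tested genes, with the spread pooled over the 4 groups and Benjamini-Hochberg adjusted p-values. The sample descriptions place the FPKM columns with the IP samples, whereas the names of the peak lists give the same short names to the samples that the IP was set against. If the values come from IP reads, a change in transcript level and a change in enrichment cannot be told apart. Nor can more expressing cells be told from more RNA per cell.

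The first comparison asked how LEA3 changed with salt in Roma. Its mean was 80.2 FPKM in salt-stressed Roma roots, against 1.61 FPKM in Roma control roots, a ratio of 50.0, and the lower salt library was 31.1 times the higher control library. LEA3 rose by a log2 change of 4.99 ± 0.54 (SE; 95% interval 3.68 to 6.31; limma, adjusted p = 0.0262). Of all tested genes, 0.332% were called higher and 0.141% lower with salt in Roma, and 8 genes had a larger rise than LEA3. That number was 31 and 13 without Roma salt replicates 1 and 2, 26 without Roma control replicate 1 and 45 with a pseudocount of 0.1. The call depended on single libraries. The adjusted p was 0.152 and 0.143 without Roma salt replicates 1 and 2, and 0.141 and 0.106 without Roma control replicates 1 and 2. It was 0.0595 and 0.0592 without M-81E salt replicates 1 and 2, which enter only through the pooled spread, and 0.0645 with a pseudocount of 0.1. The log2 change stayed between 4.64 and 5.65 over the 15 alternatives tried.

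In M-81E the mean was 20.6 FPKM in salt-stressed roots, against 2.10 FPKM in control roots, a ratio of 9.81. The lower salt library was 4.06 times the higher control library. The log2 change was 2.87 ± 0.54 (SE; 95% interval 1.56 to 4.19), and it did not pass the threshold over all genes (limma, adjusted p = 0.144). With salt in M-81E, 0.209% of tested genes were called higher and 0.283% lower, and 75 genes had a larger rise than LEA3. That number was 175 with a pseudocount of 0.1. In a fit to the M-81E groups alone the LEA3 change had an adjusted p of 0.587 (limma). M-81E control replicate 2 held the lowest LEA3 value of the 8 libraries. Without it the log2 change was 2.22 (adjusted p = 0.213), and without M-81E control replicate 1 it was 3.53 (adjusted p = 0.0214). In that last fit 9.67% of tested genes were called higher and 9.39% lower.

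The replicates of M-81E control also ranked all tested genes least alike, with a Spearman's rho of 0.807 against 0.864 to 0.912 in the other groups. In its replicate 2 the 39 genes annotated to nitrate transport, a root function, summed to 58.4 FPKM, against 193 to 260 FPKM in the other 7 libraries. Their part in the LEA3 values was not tested. Genes annotated to the Casparian strip or suberin, the seals of inner root cell layers, summed to 200.1 to 279 FPKM in every library. The 4 genes described as leaf photosynthesis proteins summed to at most 0.349 FPKM, and the 18 annotated to light harvesting, of which 2 averaged at least 1 FPKM, to 2.97 to 7.52 FPKM. The 1 gene described as an oleosin, a seed oil-body protein, had at most 0.679 FPKM.

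The salt responses of the strains were then compared with each other. The salt change in Roma minus that in M-81E was 2.12 on the log2 scale (95% interval 0.262 to 3.98; limma interaction, adjusted p = 0.502), so a difference between the strains was not shown. Of all tested genes 0.178% were called for this difference. Under salt LEA3 averaged 80.2 ± 15.2 FPKM in Roma and 20.6 ± 9.56 FPKM in M-81E (SD, n = 2 each), a ratio of 3.89, and the strains did not overlap. Both Roma salt libraries lay above both M-81E salt libraries for 48.1% of tested genes, and 8.42% of tested genes were called. The log2 difference was 1.97 ± 0.54 (SE; 95% interval 0.655 to 3.28; limma, adjusted p = 0.0775). Without M-81E control replicate 1 or 2, which enter only through the pooled spread, the adjusted p was 0.0348 and 0.0349, in fits that called 25.2% of tested genes each. It was 0.308 and 0.224 without Roma salt replicates 1 and 2, and 0.153 and 0.221 without M-81E salt replicates 1 and 2.

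In control roots LEA3 averaged 1.61 ± 0.882 FPKM in Roma and 2.10 ± 1.87 FPKM in M-81E (SD, n = 2 each), and the libraries overlapped. The log2 difference of Roma over M-81E was -0.15 (95% interval -1.46 to 1.16; limma, adjusted p = 0.874), in a contrast that called 12.1% of tested genes. Leaving out M-81E control replicate 1 turned it to 0.50, and leaving out Roma control replicate 1 to 0.20. The median tested gene was higher in Roma, by 0.30 in control and 0.29 under salt on the log2 scale. Relative to that median, LEA3 stood at -0.45 in control and 1.68 under salt.

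**Figure D2:**
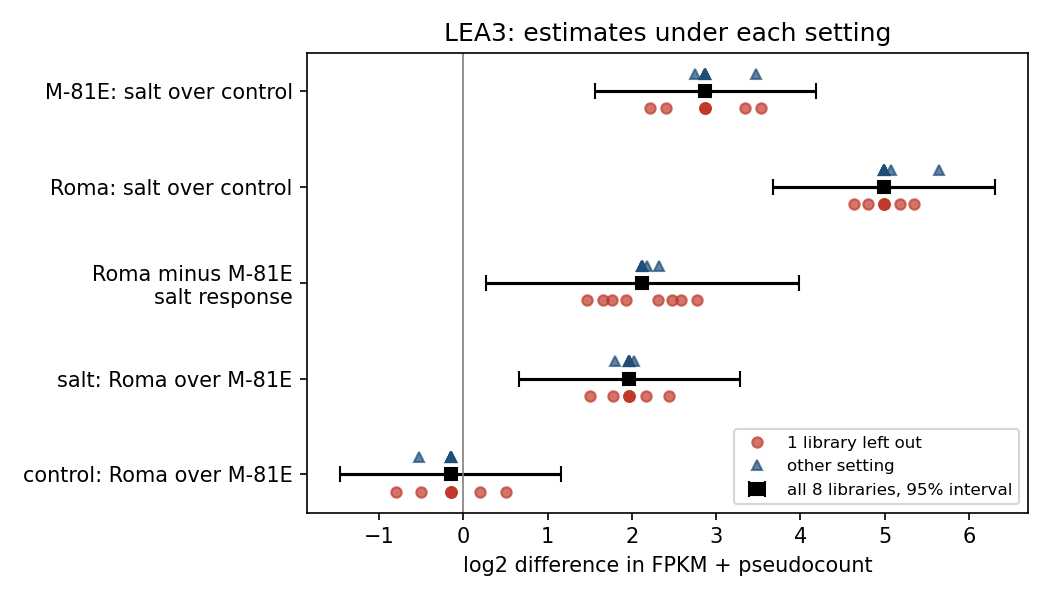
Log2 differences of LEA3 for 5 contrasts (rows). Squares with bars are the fit to all 8 libraries with 95% intervals, circles are fits with 1 library left out, and triangles are other settings. All estimates of the salt change in Roma lie between 4.64 and 5.65 and those in M-81E between 2.22 and 3.53, while Roma over M-81E in control lies on both sides of 0.

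**Figure D3:**
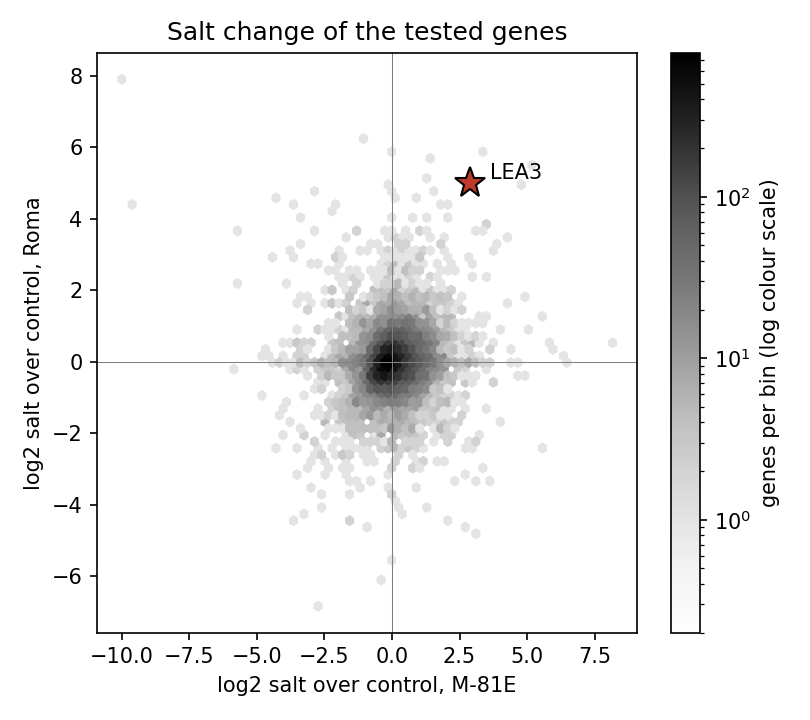
Log2 change with salt in M-81E (x) and in Roma (y) for the 16280 tested genes, as counts of genes per hexagon on a log colour scale, with LEA3 as a star. LEA3 lies at 2.87 and 4.99; most genes lie near 0 on both axes.

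The peak lists were then read for LEA3. Each list holds the authors' m6A peaks for 1 strain and treatment, of IP against input, so these values have no replicate error and were not tested. The files place the gene on the plus strand of chromosome 9 from 56036800 to 56038103, a span of 1304 bases, in a genome build that the files do not name. LEA3 had 1 peak in the Roma salt, M-81E salt and M-81E control lists and none in the Roma control list.

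The Roma salt peak ran from 56036889 to 56038073 in 3 blocks of 141, 405 and 435 bases, 981 bases in all. It began 89 bases after the start of the gene, ended 30 bases before its end and covered 90.9% of its span. The authors annotated this peak as 5′ UTR, although its blocks lay along nearly the whole gene. Its fold enrichment, the authors' ratio of IP over input, was 11.8, and the log10 of its p value was -2470. Of all peaks of the Roma salt list 97.3% were narrower and 97.0% had a weaker p value, while 31.9% had a lower fold enrichment. Only 44 of the 12080 peaks in that list, 0.364%, covered at least 90% of their gene.

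The M-81E salt peak ran from 56037487 to 56037776 in blocks of 41 and 138 bases. The M-81E control peak ran from 56037517 to 56037717 in blocks of 11 and 79 bases. The authors annotated both to exon 2 of 3. In all 3 peaks the blocks stopped at 56037527 and resumed at 56037639, so each spans the same 111-base gap, and the Roma salt peak also has a 93-base gap further upstream. Despite the exon 2 label, the larger block of each M-81E peak, of 138 and 79 bases, lay after the 111-base gap. That is the last part of the gene as cut by the gaps, and only 41 and 11 bases lay before it. All 90 bases of the M-81E control peak lay within the M-81E salt peak, where they were 50.3% of the bases. All 179 bases of the M-81E salt peak lay within the Roma salt peak, where they were 18.2%. None of these peaks was annotated as 3′ UTR, the class of 77.1% of the Roma salt peaks, 77.9% of the M-81E salt peaks and 71.1% of the M-81E control peaks. Each peak carries a single label, however. The last block of the Roma salt peak, of 435 bases, ended 30 bases before the end of the gene, so its label does not place it away from the 3′ end.

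**Figure D4:**
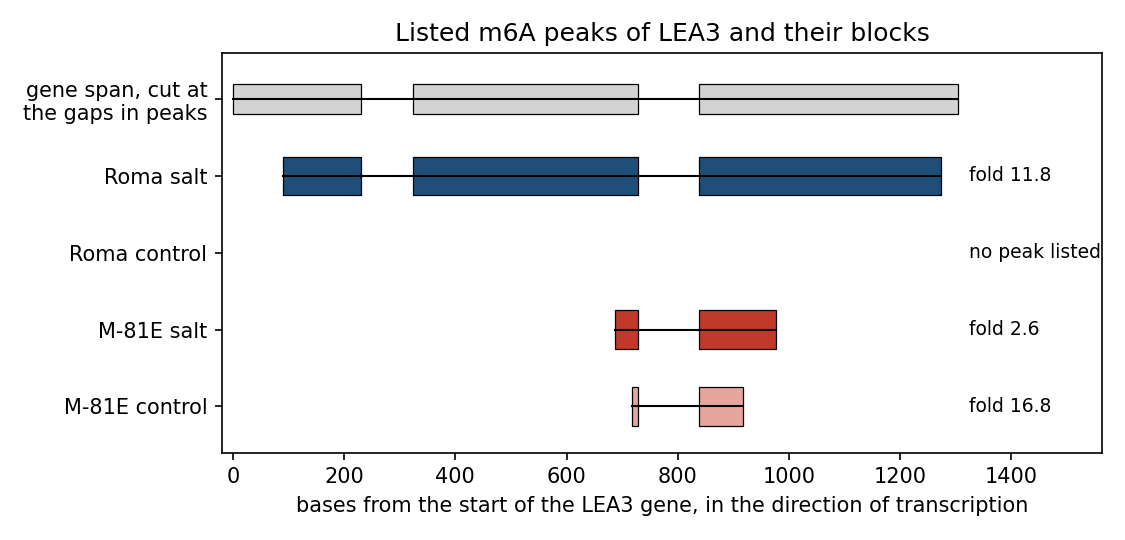
Listed m6A peaks of LEA3, drawn as blocks (boxes) joined across gaps (lines), by distance in bases from the start of the gene. The top row is the 1304-base gene span cut at the gaps seen in the peaks; the Roma salt peak covers 90.9% of the span, both M-81E peaks straddle the second gap, and Roma control has no listed peak.

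Fold enrichment did not follow the FPKM. In M-81E it was 2.6 in the salt list, where LEA3 averaged 20.6 FPKM, against 16.8 in the control list, where it averaged 2.10 FPKM, a ratio of 0.155. The log10 of the p value was -40.4 in M-81E salt and -19.9 in M-81E control. The values average over 179 bases in salt and 90 bases in control, so they do not describe the same stretch. Of the M-81E salt peaks 5.52% had a lower fold enrichment than that of LEA3, against 58.8% of the M-81E control peaks. Among the 5094 genes with 1 peak in each M-81E list, the pair overlapping, the median log2 ratio of salt over control was 0.22, and it was -2.69 for LEA3. Of these genes 122, or 2.39%, had a lower ratio. Among the 39 of them whose FPKM was higher with salt by a log2 of at least 2, a limit set after the values had been seen, the median was -0.61 and 5 were lower than LEA3.

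**Figure D5:**
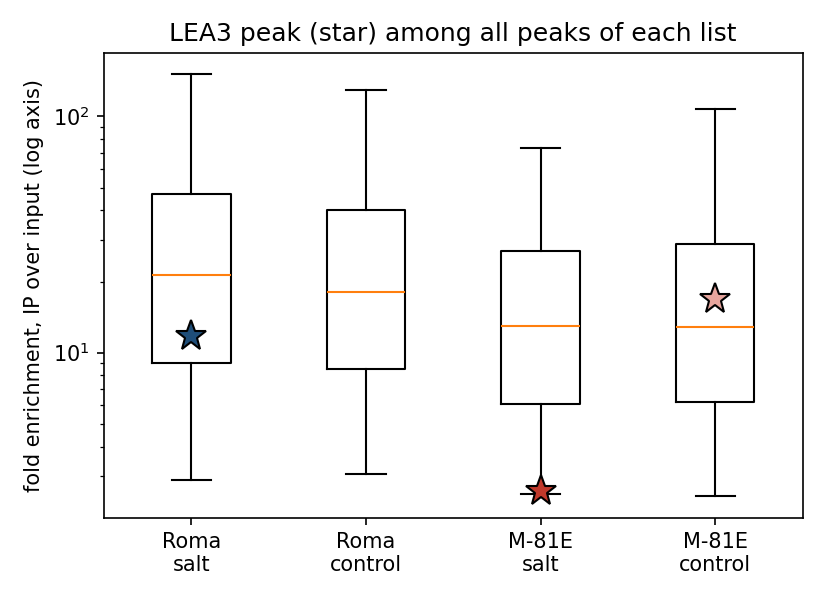
Fold enrichment of IP over input (log axis) of all peaks in each list, as boxes (quartiles and median, whiskers at the 5th and 95th percentiles), with the LEA3 peak as a star. The star is at 2.6 in M-81E salt, near the lower whisker, at 16.8 in M-81E control and at 11.8 in Roma salt; Roma control has none.

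The share of genes with a listed peak, taken at the LEA3 level of each group, differed between the lists. Of the genes within a factor of 2 of the LEA3 level in the same group, 85.8% of 1702 had a peak in the Roma salt list and 5.96% of 5083 in the Roma control list. The shares were 73.7% of 4174 genes in the M-81E salt list and 21.9% of 5262 in the M-81E control list. The Roma control list was also the shortest, with 5949 peaks against 10219 to 12080 in the others. A missing peak, as for LEA3 in Roma control, was the usual state of genes near its FPKM in that list. It does not show that the mark was absent. Level and list length differed together across the 4 lists, and the FPKM values may come from IP reads. Their parts in the missing peak cannot be told apart. Of 11065 genes with a peak in any list, 2199 (19.9%) shared the LEA3 pattern of a peak in every list but Roma control, and 4584 (41.4%) had one in all 4.

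The genes whose expression was most like that of LEA3 were taken as the 5 highest Pearson correlations of log2(FPKM + 1) over the 8 libraries, among 9701 genes that averaged 5 FPKM or more. These libraries share their strain and treatment structure, and the correlations carry no test. The limma results of these genes come from the same libraries that picked them, so they are no separate evidence of a likeness to LEA3. The first, with r = 0.984, was SORBI_3004G107000, annotated as a recombinase that pairs DNA strands. Its levels moved far less, with 6.56 ± 0.183 FPKM in Roma salt against 4.41 ± 0.244 in Roma control, and 5.78 ± 0.262 in M-81E salt against 4.20 ± 0.362 in M-81E control (SD, n = 2 each), and neither change passed (limma, adjusted p = 0.367 and 0.421).

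SORBI_3001G384100 (r = 0.970), annotated as a phosphoglycerate mutase of glycolysis, the breakdown of glucose, came closest in size. It had 31.8 and 39.2 FPKM in Roma salt against 1.95 and 2.31 in Roma control, a log2 change of 3.54 (limma, adjusted p = 0.00448). In M-81E it had 8.97 and 7.65 FPKM in salt against 1.52 and 1.05 in control, a log2 change of 2.03 (limma, adjusted p = 0.0290). This gene thus rose in both strains. The other 3 were a glutathione transferase, which joins glutathione to toxic compounds (SORBI_3001G412700, r = 0.967), a gene annotated to the phragmoplast, the structure that builds the new wall in dividing plant cells (SORBI_3001G341100, r = 0.967), and a lactoylglutathione lyase, which removes methylglyoxal (SORBI_3007G069200, r = 0.960). None of these 3 passed in Roma, with log2 changes of 1.54, 2.03 and 0.67 (limma, adjusted p = 0.0698, 0.0650 and 0.230), nor in M-81E, with 1.18, 0.79 and 0.40 (adjusted p = 0.159, 0.362 and 0.421).

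LEA3 itself carries no annotated function in the table, so pathway genes were taken from the annotations of other genes. Of 497 genes annotated to abscisic acid response or signalling, 340 were tested. In Roma 1 rose and 1 fell, beside 0.332% and 0.141% of all tested genes. At an unadjusted limma p under 0.05, 24 (7.06%) were higher and 23 (6.76%) lower there, beside 6.2% and 5.62% of all tested genes. The list had a median log2 change in Roma of 0.01 beside -0.03 over all tested genes. In M-81E 2 rose and 0 fell, beside 0.209% and 0.283% of all tested genes. At an unadjusted limma p under 0.05, 43 (12.6%) were higher and 15 (4.41%) lower, beside 7.08% and 5.73% of all tested genes. The median in M-81E was 0.09 beside -0.05 over all tested genes. The gene that rose in Roma was the aconitate hydratase SORBI_3002G316900, of the citric acid and glyoxylate cycles, with 18.7 and 24.5 FPKM in salt against 0.781 and 1.00 in control. Its log2 change was 3.57 (limma, adjusted p = 0.00400), beside 4.99 for LEA3. In M-81E the aconitate hydratase gene had 1.79 and 1.65 FPKM in salt against 0.372 and 0.263 in control. That log2 change, of 1.05, did not pass (limma, adjusted p = 0.165).

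In M-81E the protein phosphatase SORBI_3001G406300, annotated to abscisic acid signalling, had 196 and 206 FPKM in salt against 54.7 and 47.2 in control (log2 change 1.96; limma, adjusted p = 0.0173). In Roma it had 81.7 and 91.5 FPKM in salt against 56.4 and 53.4 in control (log2 change 0.65; limma, adjusted p = 0.232). SORBI_3009G170700, annotated as a receptor that binds abscisic acid and as a protein phosphatase inhibitor, had 2.52 and 2.28 FPKM in M-81E salt. It was listed at 0 in both controls of that strain (limma, adjusted p = 0.0388). In Roma it had 2.62 and 1.81 FPKM in salt against 1.70 and 1.52 in control (limma, adjusted p = 0.673). The gene that fell in Roma, SORBI_3004G305600, annotated to the spliceosome, was listed at 0 in both Roma salt libraries and at 39.7 and 45.0 FPKM in Roma control (limma, adjusted p = 5.2e-04). It was listed at 0 in all 4 M-81E libraries too. For the difference of the salt responses between the strains it was the only gene of the list called, beside 0.178% of all tested genes. At an unadjusted limma p under 0.05, 9 (2.65%) of the list were higher and 22 (6.47%) lower for that difference, beside 3.99% and 4.74% of all tested genes.

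Of 277 genes annotated to the response to water or water deprivation, 174 were tested. None passed in Roma by limma. At an unadjusted p under 0.05, 13 (7.47%) were higher and 15 (8.62%) lower in Roma, beside the same 6.2% and 5.62% of all tested genes, and the median log2 change was 0.07 beside -0.03. In M-81E 0 rose and 1 fell, beside 0.209% and 0.283% of all tested genes, and the median was 0.13 beside -0.05. The gene that fell, the ubiquitin transferase gene SORBI_3004G169200, was listed at 0 in both salt libraries against 22.8 and 10.5 FPKM in control. At an unadjusted p under 0.05, 21 (12.1%) were higher and 11 (6.32%) lower in M-81E, beside 7.08% and 5.73% of all tested genes. None passed by limma for the difference of the salt responses, where 10 (5.75%) were higher and 14 (8.05%) lower at an unadjusted p under 0.05, beside 3.99% and 4.74% of all tested genes. These annotations do not separate late embryogenesis abundant proteins from other genes of the response.

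A narrower set was picked after its values had been seen: the 5 genes annotated to cold acclimation, water deprivation and abscisic acid together. SORBI_3009G116700, of this set, had 26.6 and 71.0 FPKM in Roma salt against 3.29 and 4.72 in Roma control, a log2 change of 3.17 (limma, adjusted p = 0.119). In M-81E it had 21.9 and 9.72 FPKM in salt against 4.90 and 2.27 in control, a log2 change of 1.84 (limma, adjusted p = 0.311). Its salt libraries thus lay above its control libraries in both strains, as did those of LEA3, but neither change passed. Taken in 1 strain at a time, such a separation held for 27.2% of all tested genes in Roma and for 18.3% in M-81E. The share with it in both strains was not counted. SORBI_3010G041900 had 2.16 and 2.92 FPKM in Roma salt against 0.137 and 0.0224 in Roma control. It had 0.648 and 0.779 FPKM in M-81E salt and was listed at 0 in each M-81E control library, and had too low a mean to be tested. SORBI_3003G270200 stayed at or below 0.328 FPKM in every library. SORBI_3004G018200, annotated as an RNA- and DNA-binding protein, had 37.0 and 28.0 FPKM in Roma salt against 30.4 and 38.2 in Roma control, and 52.9 and 32.9 FPKM in M-81E salt against 28.5 and 19.7 in M-81E control (limma, adjusted p = 0.969 and 0.389). SORBI_3004G286600 differed between replicates of a group by as much as 684 against 11.7 FPKM, in M-81E salt.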

How the data were processed

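Per the labels' protocols, poly(A) RNA was fragmented, enriched with an m6A antibody or left as input, and made into strand-specific paired-end libraries. The authors deposited 4 peak lists and 1 table of FPKM values, per the file headers. The deposited lists give a ratio of IP over input (fold enrichment), a p value and score columns that hold the log10 of p and of its false discovery rate. HISAT2, StringTie, ChIPseeker, edgeR, cutadapt and FastQC appear in the submitters' processing notes, with no role stated. The peak caller, the genome build and any pooling were not stated. The sample descriptions place the 8 FPKM columns with the IP samples.

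Here limma 3.58.1 (R 4.3.3) was fitted to log2(FPKM + 1) for genes averaging 1 FPKM or more. The model had a mean for each of 4 groups, variances moderated along a trend in mean level, and p-values adjusted by Benjamini-Hochberg, called under 0.05. The fit was also run on simulated data that gave each gene the same spread in every group. In the real data the replicate SD on the log2 scale ranged from 0.526 in Roma control to 0.772 in M-81E control. The simulated run does not cover such differences between groups. Python 3.11.15 and pandas 2.3.3 served for the peak lists. Read totals are not known; relative depth, from ratios of FPKM values under 0.5, ranged from 0.801 to 1.32. Summed FPKM ranged from 325987 to 377097. Single FPKM values carry no interval. Genes and lists were chosen with earlier results of these data known. Named genes were LEA3, the 5 most correlated genes, the called members of the pathway lists and those marked as picked later. Alternatives were a pseudocount of 0.1, no filter or FPKM 5, quantile scaling, a replicate block, eBayes without a trend, only the groups compared, each library left out, and for peaks a fold enrichment of at least 3 and an overlap of 50% against 1 bp.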

Additional observations from a re-analysis of the deposited data

How the results depend on the processing

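Under 15 alternatives the salt change of LEA3 in Roma stayed positive (log2 4.64 to 5.65) and passed in 7, with adjusted p from 0.0206 to 0.152. It did not pass with a pseudocount of 0.1 (5.65, adjusted p = 0.0645) or with a replicate block (4.99, adjusted p = 0.0537); the cause was not tested. With 1 library left out it lay between 4.64 and 5.34 (adjusted p 0.0238 to 0.152). The samples share only replicate numbers: deviations of same-numbered libraries correlated at -0.0376 to 0.0384 across genes, and the block lowered the calls to 44 (34 higher, 10 lower) in Roma and 22 (9 and 13) in M-81E. In M-81E the change was 2.22 to 3.53 with 1 library left out and passed in 1 of 15 alternatives. The difference of the salt responses was positive in all 14 alternatives, at 1.47 to 2.77 with 1 library left out, and passed in none (adjusted p 0.225 to 0.934). Roma over M-81E under salt was 1.503 to 2.43 with 1 library left out and passed in 2 of 15. In control it was -0.81 to 0.50 with 1 library left out and passed in none of 15. A lone sample left in a group is assumed to vary like the other groups. With only peaks of fold enrichment at least 3, LEA3 kept 2 of its 3 peaks, losing that of M-81E salt, and 1 of 3 overlapping pairs of lists; with an overlap of at least 50% of the shorter peak all 3 pairs stayed. Replicates number 2 a group and each peak list is 1, which limits every value.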

Other observations

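The nearest genes on either side of LEA3 with coordinates in a peak list did not share its levels. SORBI_3009G215500, annotated to transcription initiation by RNA polymerase III, ends 8463 bases upstream and had 25.1 ± 1.53 FPKM in Roma salt against 23.7 ± 0.227 in Roma control, and 16.8 ± 1.95 in M-81E salt against 21.4 ± 7.16 in M-81E control (SD, n = 2 each). SORBI_3009G216000, annotated to DNA repair, starts 21021 bases downstream and had 8.27 ± 1.19 FPKM in Roma salt against 11.0 ± 0.176 in Roma control, and 7.48 ± 0.735 in M-81E salt against 8.88 ± 1.84 in M-81E control. The upstream gene had a peak in all 4 lists. The downstream gene had 1 in every list but Roma control, as LEA3 did.

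Of the 10 genes annotated to the response to desiccation, the drying in which late embryogenesis abundant proteins are best known, 6 were tested and none passed with salt in either strain by limma. At an unadjusted p under 0.05, 2 of the 6 were higher and 0 lower in Roma, beside 6.2% and 5.62% of all tested genes. In M-81E 3 were higher and 1 lower, beside 7.08% and 5.73%. This set was picked after its values had been seen. The median log2 change was 0.37 in Roma and 0.52 in M-81E, beside -0.03 and -0.05 over all tested genes. SORBI_3001G452100 is annotated to calcium binding, plant seed peroxidase activity and the responses to salt stress and abscisic acid. It had 15.2 and 15.1 FPKM in Roma salt against 7.63 and 8.45 in Roma control. In M-81E it had 7.18 and 5.49 in salt against 4.36 and 3.05 in control. SORBI_3001G452200, with the same annotation, had 15.7 and 17.5 FPKM in Roma salt against 9.89 and 8.35 in Roma control. In M-81E it had 9.67 and 14.4 in salt against 6.57 and 7.53 in control. SORBI_3004G267500 went the other way in M-81E, with 14.6 and 13.5 FPKM in salt against 27.8 and 24.5 in control. SORBI_3009G247900 was at 1187 and 1091 FPKM in Roma salt against 1196 and 1165 in Roma control, but at 892 and 67.7 in M-81E salt against 1261 and 27.1 in M-81E control, so replicates of M-81E differed more than the treatments.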
